A study of Rattus norvegicus with 24 samples.

Results

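Expression of the nuclear receptor PPAR alpha (Ppara) and of 4 genes known to rise in the liver on fasting, Vnn1, Angptl4, Fgf21 and Pdk4, was followed in primary rat hepatocytes exposed to 4 piperazine designer drugs. These 5 genes were chosen by name and found through the platform annotation, which gave them 6 of the 31042 probe sets tested, 2 of them for Pdk4 and 1 for each other gene. The hepatocytes were kept in collagen sandwich culture, between layers of collagen, and were exposed for 24 h to 625 µM BZP (benzylpiperazine), 35 µM TFMPP (trifluoromethylphenylpiperazine), 522 µM MeOPP (methoxyphenylpiperazine) or 467 µM MDBP (methylenedioxybenzylpiperazine), each at its EC20. BZP and MDBP are benzylpiperazines, and TFMPP and MeOPP are phenylpiperazines. For each of the 3 samples per drug the labels name 1 control culture with 0.1 percent DMSO, so that 12 treated and 12 DMSO samples formed 12 pairs. No rat strain, age or donor is given in the labels, so p-values below reflect only how much these samples varied, and that variation may be technical.

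PPAR alpha is a fatty acid sensor of hepatocytes. It binds DNA together with a retinoid X receptor and is known to switch on fatty acid oxidation, ketone body synthesis and several secreted factors when fatty acids reach the liver during fasting. Vnn1 encodes a pantetheinase that frees vitamin B5 and cysteamine from pantetheine, and its liver expression is known to depend on PPAR alpha. Angptl4 encodes a secreted inhibitor of lipoprotein lipase, Fgf21 a fasting hormone of the liver that also responds to ATF4, the factor of the amino acid and stress response, and Pdk4 a kinase that turns off the pyruvate dehydrogenase complex and so spares glucose.

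Values are log2 expression values made by RMA, in which 1 unit is a doubling of signal, and array medians lay between 4.454 and 4.524. Changes are drug minus named DMSO control on that scale, fitted in limma with pair terms, and a probe set was called changed at a Benjamini-Hochberg adjusted p under 0.05 over all probe sets. A clustering tree of the 12 DMSO arrays was cut into 5 sets, a number chosen for the analysis. The sets are called preparations here, and whether they match cell isolations is not known. Correlations were 0.9943 to 0.9971 within a set and 0.9622 to 0.9919 between sets. Preparation 1 held pair 1 of all 4 drugs. Preparation 2 held pair 2 of BZP, TFMPP and MeOPP, preparation 3 pair 3 of BZP and MDBP, preparation 4 pair 3 of TFMPP and MeOPP, and preparation 5 the remaining MDBP pair, its pair 2. No label mentions these sets. Markers of hepatocytes were high, with a mean log2 value per array of 12.17 to 12.78 in treated and 12.46 to 12.93 in DMSO samples over 9 genes.

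Vnn1 and Angptl4 fell with the drugs, and no call was made for Ppara, Fgf21 or Pdk4. In the mean of the 4 drugs Vnn1 changed by -1.29 ± 0.08 (SE, n = 12 pairs; 2.45-fold lower; limma adjusted p = 9.5e-09) and Angptl4 by -1.08 ± 0.09 (2.12-fold lower; adjusted p = 4.18e-07), each lower in 12 of 12 pairs. Of all probe sets 9.85 percent were called lower in this mean, and 3.89 percent were lower in 12 of 12 pairs. Ppara stood at -0.10 ± 0.06 (adjusted p = 0.25), Fgf21 at -0.34 ± 0.24 (adjusted p = 0.376), and the Pdk4 probe sets 1378074_at and 1369150_at at 0.01 ± 0.06 and -0.08 ± 0.07 (adjusted p = 0.901 and 0.53). The 12 pairs fell into 5 inferred preparations and are not taken as fully independent. With 1 value per preparation the adjusted p was 2.9e-05 for Vnn1 and 0.000853 for Angptl4. Without the pair terms it was 0.00476 and 0.0083 in the mean, but no drug alone then gave a call for either gene.

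**Figure D1:**
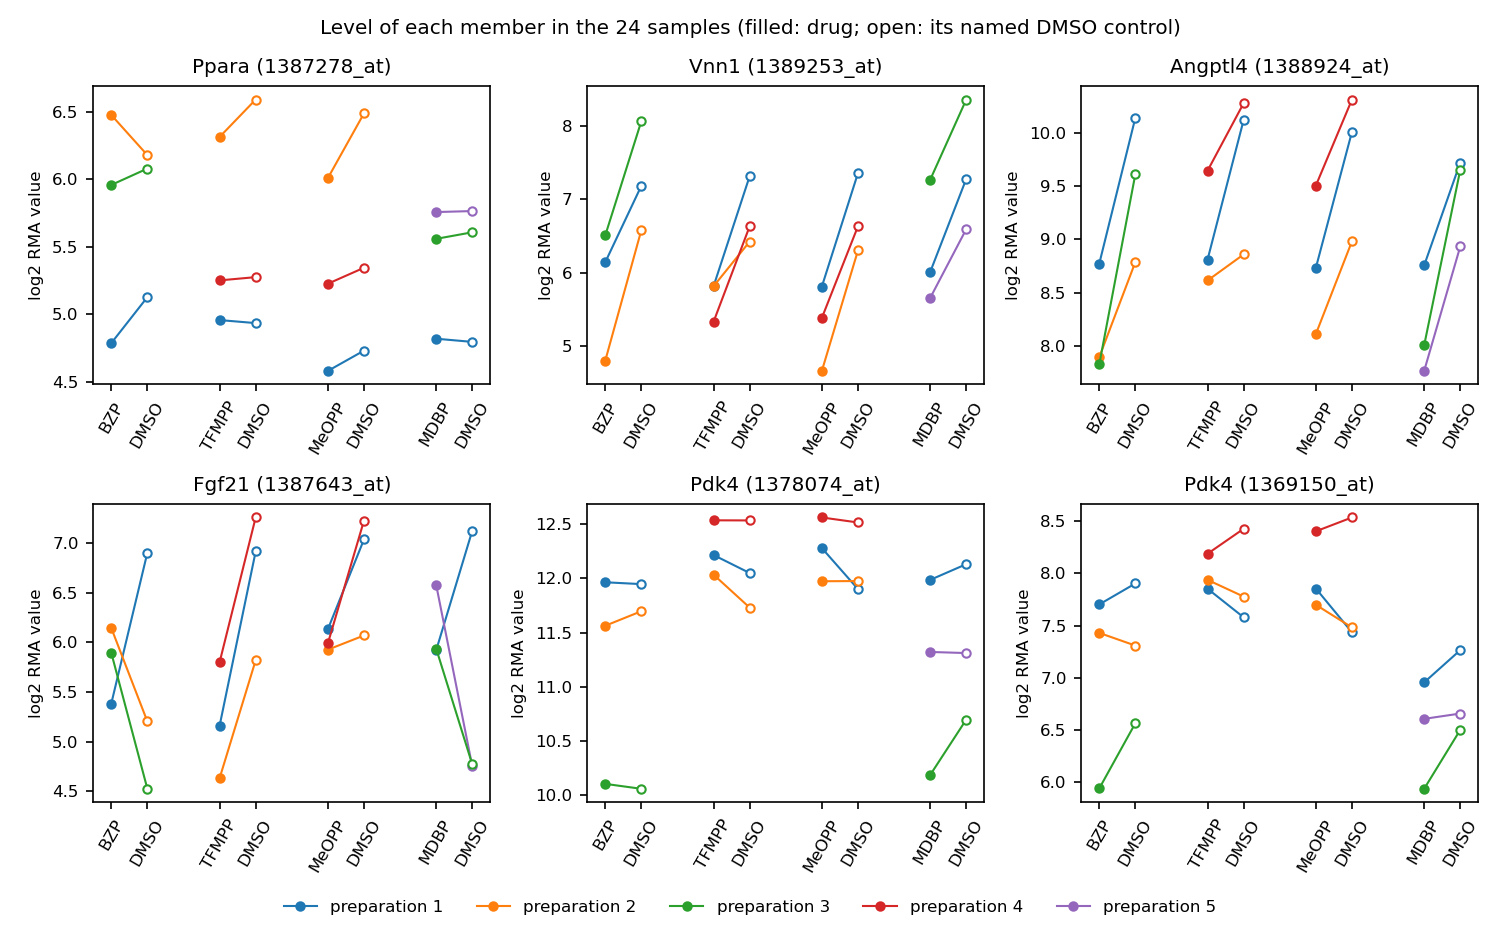
Log2 RMA value (vertical axis) of each of the 6 probe sets in the 24 samples, with treated samples as filled points left of their DMSO controls as open points, lines joining the 12 pairs and colours marking the 5 inferred preparations. Every line of Vnn1 and Angptl4 is lower at the drug end, while Fgf21 lines run both ways and Pdk4 and Ppara differ mainly by preparation.

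Vnn1, measured by probe set 1389253_at, was lower in every pair. Its values were 6.14, 4.80 and 6.51 in BZP samples, against 7.18, 6.58 and 8.06 in their controls. They were 5.81, 5.81 and 5.33 in TFMPP samples and 7.31, 6.42 and 6.63 in their controls. With these drugs no treated sample reached a control, and the same held for MeOPP, with 5.81, 4.66 and 5.38 in treated samples and 7.35, 6.30 and 6.63 in controls. In the MDBP samples Vnn1 stood at 6.01, 5.65 and 7.26, against 7.28, 6.59 and 8.36 in controls, and here the groups overlapped although each treated sample lay below its own control. Groups that do not overlap, with treated below control, were found for 4.58 percent of probe sets with BZP, 4.34 percent with TFMPP, 5.66 percent with MeOPP and 5.8 percent with MDBP.

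By drug the Vnn1 change was -1.46 (BZP), -1.14 (TFMPP), -1.48 (MeOPP) and -1.10 (MDBP), each ± 0.16 (SE, n = 3 pairs), and all 4 calls were made in limma, with adjusted p = 2.81e-05, 0.00135, 3.59e-05 and 0.000378. The share of all probe sets called lower was 4.48 percent (BZP), 1.22 percent (TFMPP), 3.78 percent (MeOPP) and 3.76 percent (MDBP). Mean changes were -1.34, -1.34, -1.33 and -1.27 in preparations 1 to 4 and -0.94 in the single pair of preparation 5. Single pairs spread more, between -1.55 and -1.04 in preparation 1 and between -1.78 and -0.61 in preparation 2. Levels also differed between preparations. Control means ranged between 6.43 in preparation 2 and 8.21 in preparation 3, and DMSO samples had an SD of 0.654 over all 12 but of 0.118 within preparations.

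Angptl4, measured by probe set 1388924_at, was also lower in every pair, with more variation in size. In BZP samples it stood at 8.77, 7.89 and 7.82, against 10.14, 8.79 and 9.61 in controls, and in MDBP samples at 8.75, 7.76 and 8.00, against 9.72, 8.93 and 9.65. As in 4.58 percent of all probe sets with BZP and 5.8 percent with MDBP, the groups did not overlap, with treated below control. They overlapped with both phenyl compounds, which had 8.81, 8.61 and 9.65 in TFMPP samples against 10.12, 8.86 and 10.28 in controls, and 8.73, 8.11 and 9.51 in MeOPP samples against 10.01, 8.98 and 10.32. By drug the change was -1.35 with BZP (adjusted p = 0.000247), -0.99 with MeOPP (0.00434) and -1.26 with MDBP (0.000559), each ± 0.19 (SE, n = 3 pairs, limma). With TFMPP it was -0.73 ± 0.19 and missed the threshold (limma adjusted p = 0.063). It passed without pair 2 or pair 3 of BZP (0.0391 and 0.0382) and among probe sets with a mean of at least 5 (0.0492). Across the fits that left out 1 pair, the TFMPP change ranged between -0.97 and -0.44 and its limma adjusted p between 0.0382 and 0.578. The MeOPP call was lost without its pair 1 (-0.84, adjusted p = 0.0688).

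The size of the Angptl4 change also varied between preparations. Mean changes were -1.23 in preparation 1, -0.67 in preparation 2, -1.72 in preparation 3, -0.72 in preparation 4 and -1.17 in preparation 5. Preparations 3 and 5 held only benzyl compounds and preparation 4 only phenyl compounds. Beyond preparations 1 and 2, compound class and preparation therefore cannot be told apart for Angptl4. In preparation 1, the only one with all 4 drugs, the changes were -1.37 (BZP), -1.31 (TFMPP), -1.28 (MeOPP) and -0.97 (MDBP). The weakest change of all, -0.25, was that of TFMPP in preparation 2, and there Vnn1 too had its smallest change, at -0.61.

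**Figure D2:**
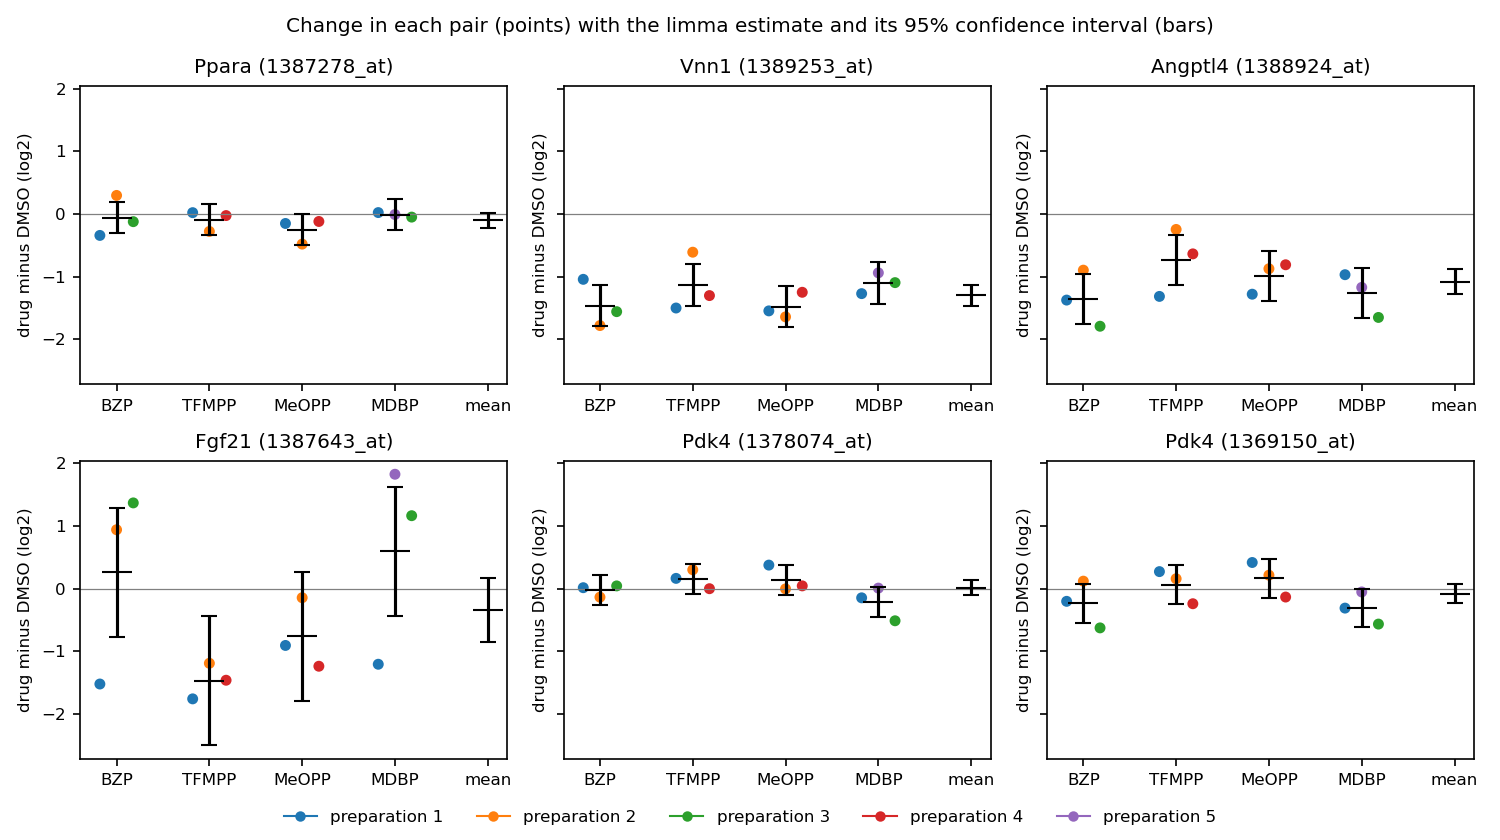
Drug minus DMSO on the log2 scale (vertical axis) for each pair (points, coloured by preparation) by drug, with the limma estimate as a dash and its 95 percent confidence interval as a bar, and the mean of the 4 drugs at the right. All Vnn1 and Angptl4 points lie below 0, and Fgf21 points spread on both sides.

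The 250 bases before the annotated start were read from RefSeq promoters of build GRCr8, which held 4 of the 5 genes and not Vnn1, and the sequences of Angptl4 and Fgf21 are shown because the first gene was called with 3 drugs and the second had changes of both signs. Letters were searched on both strands, namely the half-site AGGTCA bound by PPAR and RXR, a direct repeat of it with 1 base between the copies, the composite TGATGNAA of ATF4 type, the E-box CACGTG and the TATA-type TATAAA. Matches are in capitals.
Angptl4, chr7:15258682-15258931, minus strand: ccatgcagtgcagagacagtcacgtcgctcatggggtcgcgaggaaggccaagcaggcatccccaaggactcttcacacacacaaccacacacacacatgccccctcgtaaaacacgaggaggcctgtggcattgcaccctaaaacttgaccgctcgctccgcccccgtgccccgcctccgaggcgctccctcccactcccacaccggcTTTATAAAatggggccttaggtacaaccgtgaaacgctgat
Fgf21, chr1:105221377-105221626, minus strand: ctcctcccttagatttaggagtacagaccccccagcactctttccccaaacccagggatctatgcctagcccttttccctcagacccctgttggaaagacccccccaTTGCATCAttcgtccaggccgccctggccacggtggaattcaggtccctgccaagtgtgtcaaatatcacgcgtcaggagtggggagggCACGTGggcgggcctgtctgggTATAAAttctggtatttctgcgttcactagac
In the Angptl4 window, capitals mark TATAAA on both strands, in overlap, beginning 41 and 39 bases before the start. In the Fgf21 window, TTGCATCA, which is TGATGNAA on the other strand, begins 143 bases before the start, CACGTG 54 and TATAAA 32 bases before it. Over 33469 rat promoter windows of that length, AGGTCA was found in 14.1 percent, the spaced repeat in 0.0508 percent, TGATGNAA in 3.4 percent, CACGTG in 5.59 percent and TATAAA in 12.9 percent. None of the 5 motifs was found in the windows of Ppara and Pdk4. A match describes these letters and is not a binding site.

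Fgf21, measured by probe set 1387643_at, was lower with the drugs in some preparations and higher in others. It stood at 5.38, 6.14 and 5.89 in BZP samples, against 6.90, 5.20 and 4.52 in controls. In MDBP samples it stood at 5.92, 6.58 and 5.94, against 7.12, 4.75 and 4.77. With both benzyl compounds, then, the treated sample was lower in pair 1 and higher in pairs 2 and 3. With TFMPP the values were 5.16, 4.63 and 5.80, against 6.92, 5.82 and 7.26 in controls, with no overlap. MeOPP samples had 6.13, 5.93 and 5.99, against 7.04, 6.07 and 7.23, and were lower in 3 of 3 pairs with groups that overlapped. No drug gave a call, at 0.26 (BZP), -1.47 (TFMPP), -0.76 (MeOPP) and 0.60 (MDBP), each ± 0.48 (SE, n = 3 pairs; limma adjusted p = 0.819, 0.179, 0.458 and 0.562). With TFMPP the call was made when the 6 samples of that drug were fitted alone (adjusted p = 0.000114) and with preparation terms in place of pair terms (-1.28, adjusted p = 0.0384).

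Sorted by preparation, the Fgf21 changes had the same sign within every preparation but the second. In preparation 1 all 4 treated samples were below their controls, at -1.52 (BZP), -1.76 (TFMPP), -0.90 (MeOPP) and -1.20 (MDBP). Preparation 4 was lower too, at -1.46 with TFMPP and -1.24 with MeOPP. Preparation 3 was higher, at 1.37 with BZP and 1.17 with MDBP, as was the single MDBP pair of preparation 5, at 1.83. Preparation 2 was split, at 0.94 with BZP, -0.14 with MeOPP and -1.19 with TFMPP. Drug and preparation are mixed here, since preparations 3 and 5 held only benzyl compounds and preparation 4 only phenyl compounds, so beyond preparations 1 and 2 the compound class and the preparation cannot be told apart. These directions were read after the preparations were formed from the control arrays, and the difference between preparations was not tested.

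The controls differed more than the treated samples. Fgf21 had a mean of 7.24 in the DMSO samples of preparation 4 but of 4.65 in those of preparation 3, and over all samples the SD was 0.512 in the 12 treated and 1.08 in the 12 DMSO samples. Treated values lay between 4.63 and 6.58 and DMSO values between 4.52 and 7.26. In preparations 3 and 5, where the drug samples were higher, the controls (4.52, 4.77 and 4.75) lay near the array medians. Each change holds the control's own value, so a high control and a negative change are not independent measurements.

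**Figure D3:**
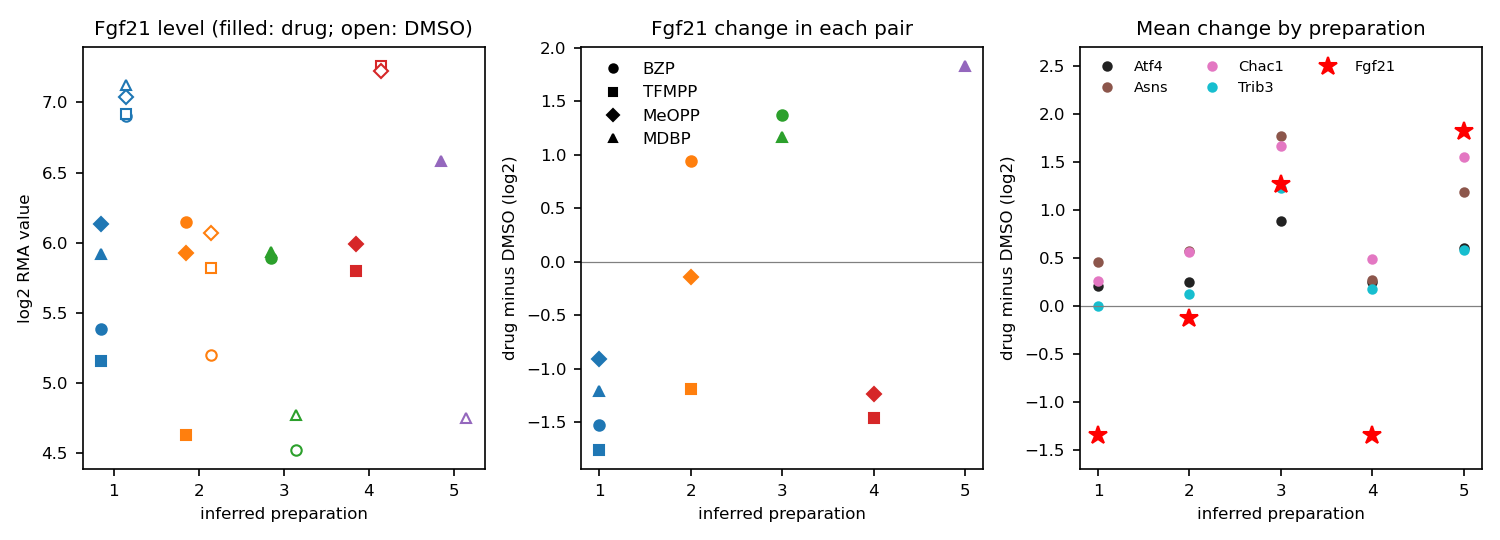
Fgf21 by inferred preparation (horizontal axis), as log2 RMA values of drug and DMSO samples (left), as the change in each pair with the drug given by the point's shape (centre), and as the mean change beside those of Atf4, Asns, Chac1 and Trib3 (right). Fgf21 is lower with the drugs in preparations 1 and 4 and higher in preparations 3 and 5, where the 4 other genes have their largest changes.

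Genes around FGF21 were described from a list of its receptors and of ATF4-type inputs, with 17 of 18 measured, of which 4 rose and 2 fell in the mean of the drugs (list median 0.05, against 0.01 for all 14217 genes). Among all genes 18 percent were called higher and 11.9 percent lower. The count of fallers is near that share, so nothing is read from it. Atf4 rose by 0.37 ± 0.07 (adjusted p = 0.00077), Asns, the asparagine synthetase, by 0.74 ± 0.12 (0.000356), and Chac1, a glutathione-degrading enzyme, by 0.72 ± 0.13 (0.000503), while Trib3, a pseudokinase induced with them, stood at 0.32 ± 0.11 (0.0602; limma, SE, n = 12 pairs). Elsewhere in the list, Atf3 was called higher (0.57, limma adjusted p = 0.00643). Ddit3 (0.10, 0.614), Sesn2 (0.16, 0.085) and Ddit4 (-0.16, 0.104) were not called. By drug, Asns changed by 0.98 (BZP), 0.16 (TFMPP), 0.65 (MeOPP) and 1.16 (MDBP), and Chac1 by 0.87, 0.05, 0.71 and 1.23. Atf4, Asns and Chac1 were each called with BZP and MDBP but not with TFMPP or MeOPP. Asns had mean changes of 0.46, 0.57, 1.77, 0.27 and 1.19 in preparations 1 to 5, and Chac1 of 0.26, 0.57, 1.67, 0.49 and 1.55. Asns and Chac1, like Fgf21, were highest against control in preparations 3 and 5. Those preparations held only benzyl compounds, so drug and preparation cannot be told apart there. Their controls were lowest there, with Asns at 7.34 and 7.91 in the DMSO samples of preparations 3 and 5, against 8.21, 8.04 and 8.49 in those of preparations 1, 2 and 4. The same order held for Atf4, with DMSO means of 10.36 and 10.78 in preparations 3 and 5 and of 11.49, 11.11 and 11.48 in preparations 1, 2 and 4. The list as a whole did not share this, with medians of 0.01, -0.03, 0.16, 0.06 and 0.02 in preparations 1 to 5. Of the receptors, Fgfr3 fell by 0.80 on the log2 scale (± 0.09, limma adjusted p = 6.78e-06) and Fgfr4, the main FGF receptor of hepatocytes, by 0.37 (± 0.07, 0.000625). No call was made for Fgfr1 (0.01, limma adjusted p = 0.931) or Fgfr2 (-0.15, 0.15). Klb, also listed, had no probe set of its own. By single drug Fgfr4 was called only with MDBP and stood at -0.03 with TFMPP (limma adjusted p = 0.975).

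Pdk4 differed mainly by preparation and gave no call with any drug in the fit with pair terms. Probe set 1378074_at ranged between 10.11 and 12.56 in treated and between 10.06 and 12.53 in DMSO samples, and probe set 1369150_at between 5.94 and 8.40 and between 6.50 and 8.53. Control means were lowest in preparation 3 and highest in preparation 4 on both, at 10.38 and 12.52 on the first and at 6.53 and 8.48 on the second. Within preparations the DMSO SD was 0.201 and 0.220, against 0.719 and 0.662 over all 12. By drug the changes were -0.02 (BZP), 0.16 (TFMPP), 0.14 (MeOPP) and -0.22 (MDBP) on 1378074_at (each ± 0.11), and -0.23, 0.07, 0.17 and -0.31 on 1369150_at (each ± 0.15; SE, n = 3 pairs), with limma adjusted p between 0.255 and 0.949. The 95 percent interval of the mean of the drugs was -0.10 to 0.13 on the first probe set and -0.23 to 0.08 on the second. With MDBP the second was lower in 3 of 3 pairs, at -0.31, -0.05 and -0.56 in pairs 1 to 3. Its change with MDBP was -0.45 and called with preparation terms in place of pair terms (limma adjusted p = 0.0465), and -0.95 without a call against all 12 DMSO samples as 1 control group (0.308).

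Around Pdk4, genes of the pyruvate dehydrogenase system were called in both directions. Of 11 measured genes of the complex, its kinases, its phosphatases and the pyruvate carrier, 2 rose and 5 fell in the mean of the drugs (median -0.01). Over all genes, 18 percent were called higher and 11.9 percent lower. The count of risers is near that share, so nothing is read from it. Both phosphatases that turn the complex on rose, Pdp2 by 0.91 ± 0.06 (1.88-fold; adjusted p = 1.65e-08) and Pdp1 by 0.40 ± 0.07 (0.00055). The kinases Pdk1 and Pdk2 fell, by 0.56 (± 0.06; adjusted p = 4.82e-06) and 0.38 (± 0.07; 0.00056) on the log2 scale, with Pdhb, a subunit of the first enzyme, at -0.43 ± 0.05 (1.2e-05; limma, SE, n = 12 pairs). The 4 genes without a call included the kinase Pdk3 (0.03, limma adjusted p = 0.814) and Pdha1, also a subunit of the first enzyme (0.11, 0.239). Pdp2 rose with each drug, by 1.05 (BZP), 0.92 (TFMPP), 0.82 (MeOPP) and 0.85 (MDBP), with limma adjusted p = 3.45e-05, 0.000708, 0.000417 and 0.000272.

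Ppara itself, measured by probe set 1387278_at, ranged between 4.58 and 6.48 in treated and between 4.73 and 6.59 in DMSO samples, not far above the array medians. Its control mean was 4.90 in preparation 1 and 6.42 in preparation 2. The drugs gave changes of -0.05 (BZP), -0.09 (TFMPP), -0.25 (MeOPP) and -0.01 (MDBP), each ± 0.12 (SE, n = 3 pairs; limma adjusted p = 0.846, 0.883, 0.265 and 0.976). MeOPP samples were lower in 3 of 3 pairs. In the mean of the drugs the 95 percent interval was -0.22 to 0.02.

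Among receptors, partners and cofactors of PPAR alpha, 1 of 16 measured genes rose and 5 fell (median -0.06). Over all genes, 18 percent were called higher and 11.9 percent lower. Rxra, its main partner in liver, stood at -0.05 ± 0.06 (adjusted p = 0.655), and Creb3l3, a liver factor that acts with PPAR alpha on Fgf21, at -0.01 ± 0.10 (0.977). The coactivators Ppargc1a and Ppargc1b fell by 0.39 (± 0.05; 3.86e-05) and 0.38 (± 0.06; 0.000183), and Nr0b2, a corepressor, by 0.34 (± 0.09; 0.0123; limma, SE, n = 12 pairs). Ppargc1b was called lower with BZP, MeOPP and MDBP but stood at 0.03 with TFMPP (limma adjusted p = 0.978). Ppargc1a was dim, with a mean of 3.56 in treated and 3.95 in DMSO samples.

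Most other known targets of PPAR alpha in oxidation were called lower. Among all genes 11.9 percent were called lower and 18 percent higher in the mean of the drugs. Of 21 measured genes of peroxisomal and microsomal oxidation 17 fell and 0 rose in the mean of the drugs (median -0.37, and 0 rose at an unadjusted p under 0.05). Cyp4a3 and Cyp4a1, fatty acid omega-hydroxylases, stood at -1.68 ± 0.09 and -1.67 ± 0.13, Ehhadh, the peroxisomal bifunctional enzyme, at -1.20 ± 0.09 and Decr2, a peroxisomal reductase, at -1.07 ± 0.06 (adjusted p between 1.84e-09 and 1.39e-07). Of 23 genes of mitochondrial oxidation and ketone bodies 17 fell and 1 rose, Cpt1b, the muscle form of carnitine palmitoyltransferase, which was named after its value was seen (median -0.49). Acaa2 and Hadh, which carry out the last steps of beta-oxidation, stood at -1.03 ± 0.06 and -0.98 ± 0.09, Decr1, a mitochondrial reductase, at -0.89 ± 0.06, and Cpt1a, the gate of fatty acid entry, at -0.63 ± 0.07 (adjusted p between 2.84e-09 and 3.1e-06). Cpt1a was called lower with BZP, MeOPP and MDBP but stood at -0.10 with TFMPP (limma adjusted p = 0.896). Acot1, an acyl-CoA thioesterase with a mean of only 2.50 in treated and 3.42 in DMSO samples, stood at -0.92 ± 0.18 (0.0013; limma, SE, n = 12 pairs).

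Uptake, storage and lipoprotein targets were mixed, with 12 of 27 lower and 4 higher (median -0.08). Over all genes, 11.9 percent were called lower and 18 percent higher. Gpd1, the glycerol 3-phosphate dehydrogenase, stood at -1.18 ± 0.05, Slc27a2, a fatty acid transporter, at -0.86 ± 0.07, and Apoa2 at -0.79 ± 0.07, while Fads1 was far higher, at 2.22 ± 0.12 (SE, n = 12 pairs; adjusted p between 5.21e-10 and 3.02e-07). The 4 risers were Fads1, Fads2, Scd and Plin2, of which the first 3 are desaturases that SREBP-1 also drives, and all but Fads1 were named after their values were seen. By drug, the median of the peroxisomal list was -0.42 (BZP), -0.46 (TFMPP), -0.35 (MeOPP) and -0.36 (MDBP), and that of the mitochondrial list -0.70, -0.34, -0.39 and -0.52. By preparation the lowest median of both lists was that of preparation 3, at -0.63 and -0.75.

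**Figure D4:**
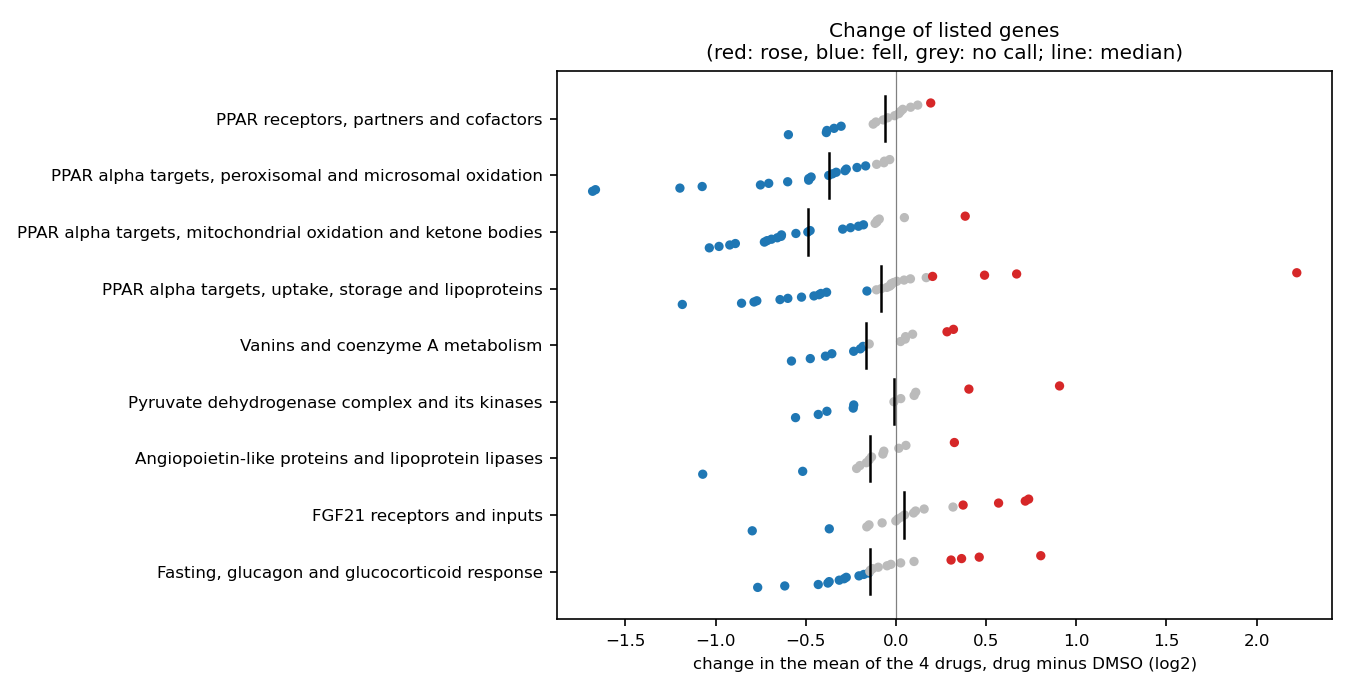
Change in the mean of the 4 drugs (horizontal axis, log2, drug minus DMSO) of each measured gene of 9 lists, coloured by its limma call, with the list median as a black line. Points of the peroxisomal and mitochondrial lists lie mostly below 0, with medians of -0.37 and -0.49.

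Near Vnn1, genes of coenzyme A metabolism fell in 7 of 14 measured members and rose in 2 (median -0.17). Calls over all genes were lower in 11.9 percent and higher in 18 percent. As the risers are near that share, nothing is read from their count. Ppcs and Pank1, enzymes of coenzyme A synthesis of which Pank1 is a known PPAR alpha target, stood at -0.58 ± 0.06 and -0.47 ± 0.05, Csad, of taurine synthesis, at -0.39 ± 0.05, and Slc5a6, the vitamin B5 and biotin carrier, rose by 0.32 ± 0.05 (limma adjusted p between 1.65e-06 and 0.000203). Vnn3, another vanin, had no probe set of its own. Near Angptl4, 2 of 12 measured genes fell and 1 rose (median -0.14), beside 11.9 percent of all genes called lower and 18 percent called higher, so nothing is read from these counts. Apoc2, the cofactor of lipoprotein lipase, stood at -1.07 ± 0.09 (adjusted p = 2.96e-07), Hif1a, a hypoxia factor that also drives Angptl4, rose by 0.32 ± 0.05 (0.00017), and Lpl stood at -0.22 ± 0.09 (0.109). Apoc1 also fell, by 0.52, and was named after its value was seen.

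Other genes of fasting, glucagon and glucocorticoid action fell in 11 of 23 measured members and rose in 4 (median -0.14). Over all genes, 11.9 percent were called lower and 18 percent higher. The count of risers is near that share, so nothing is read from it. Pck1, a rate-limiting enzyme of gluconeogenesis, stood at -0.37 ± 0.05 (adjusted p = 7.51e-05), Sds, a serine dehydratase, at -0.77 ± 0.08 (4.75e-06) and Gcgr, the glucagon receptor, at -0.62 ± 0.06 (2.07e-06). Srebf1 and Irs2 rose, by 0.80 ± 0.06 (1.16e-07) and 0.46 ± 0.07 (0.00013). Igfbp1, a secreted protein known to rise on fasting, stood at 0.03 ± 0.04 (0.738; limma, SE, n = 12 pairs).

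Doses differed between the drugs, so differences between them are not at matched concentration. In limma 0 of 36 tests, on 6 probe sets for 6 differences between drugs, passed, with 6 at an unadjusted p under 0.05 and a lowest adjusted p of 0.619. Over all probe sets the differences gave calls only for BZP minus TFMPP, at 0.0515 percent. For Angptl4, BZP minus TFMPP was -0.62 (95 percent interval -1.18 to -0.06, adjusted p = 0.745) and BZP minus MDBP, which differ by the methylenedioxy group, -0.09 (-0.65 to 0.47). For Vnn1, MDBP and BZP differed by -0.36 (BZP minus MDBP, -0.83 to 0.11) and TFMPP and MeOPP by 0.34 (TFMPP minus MeOPP, -0.13 to 0.81). For Fgf21, TFMPP minus MDBP was -2.06 (-3.52 to -0.61, adjusted p = 0.619), and those drugs shared only preparation 1, where their changes were -1.76 and -1.20. These intervals are wide and do not show that the drugs act alike.

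The genes with the most similar pattern were taken as the 3 with the highest Pearson r with each probe set over the 12 pair changes, among genes with a mean of at least 5. The pairs share 5 inferred preparations, so r is a description. For Vnn1 they were Padi2, Phyh and Aga (r = 0.885, 0.814 and 0.804), of which Phyh, a peroxisomal phytanoyl-CoA hydroxylase, was itself called, at -0.81. For Angptl4 they were Stat2, Lonp2 and Ebp (0.937, 0.936 and 0.930), and for Fgf21 Tes, Hspbap1 and Lamtor3 (0.939, 0.937 and 0.934). Ppara was closest to Ubn2, Rubcn and Rnf166 (0.894, 0.786 and 0.783). The 2 Pdk4 probe sets shared none of their closest genes, with Thbs2, Cd74 and Nav2 (0.899, 0.823 and 0.796) for 1378074_at and Brd3, Adgrf5 and Ubap2l (0.910, 0.865 and 0.860) for 1369150_at.

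Of 9 hepatocyte markers 4 fell and 1 rose in the mean of the drugs (median -0.11). Over all genes, 11.9 percent were called lower and 18 percent higher. Among these markers Apob stood at -1.02 ± 0.06, Cps1 at -0.37 ± 0.06 and Ttr at -0.24 ± 0.04. Ahsg rose by 0.34 ± 0.05 (SE, n = 12 pairs; limma adjusted p between 3.12e-09 and 0.000406 for these 4 genes). Of 8 Kupffer cell and leukocyte markers 4 fell and 1 rose in the mean of the drugs (median -0.22), of 9 stellate cell markers 1 fell and 1 rose, of 6 endothelial markers 1 fell, and of 5 cholangiocyte markers 0 were called by limma, nor was any at an unadjusted p under 0.05. The Kupffer cell median was lowest in preparation 3, at -0.49, where Angptl4 had its lowest mean change too. This was not particular to Kupffer cells, since the peroxisomal and mitochondrial lists also had their lowest medians there. Of the other marker lists, stellate cells (-0.14) and cholangiocytes (-0.18) were lowest in preparation 3 too. Hepatocyte and endothelial markers were lowest in preparations 1 (-0.26) and 5 (-0.20). Their mean log2 values per array ranged between 5.31 and 6.56 in treated and 5.49 and 6.78 in DMSO samples for Kupffer cells, 4.83 and 5.73 against 4.82 and 5.71 for stellate cells, 4.28 and 6.09 against 4.51 and 6.19 for endothelium, and 4.14 and 4.34 against 4.13 and 4.49 for cholangiocytes. Of the Kupffer cell and leukocyte markers, Clec4f, a lectin of Kupffer cells, stood at -0.48 ± 0.08 (limma adjusted p = 0.000274), Csf1r, the macrophage growth factor receptor, at -0.41 ± 0.06 (0.000185) and Cd14, a coreceptor for endotoxin, at -0.41 ± 0.08 (0.00125), while Cd68, a lysosomal macrophage protein, rose by 0.45 ± 0.08 (0.000607; SE, n = 12 pairs). Their part in the changes above was not tested, and fewer cells of a type and less RNA per cell cannot be told apart in these bulk samples.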

How the data were processed

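RNA of 24 samples was labelled and hybridised to Affymetrix rat expression arrays, 1 array per sample, per the labels' protocols. The deposited log2 values were made with RMA, per the submitters' processing notes. They were used as deposited, without 57 Affymetrix control probe sets, which left 31042. The platform table gave 1 symbol to 20826 of these, several to 436 and none to 9780, and a gene of a list was represented by its brightest probe set on average.

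A single linear model (R 4.3.3, limma 3.58.1) held all 24 arrays, a term per pair and a term per drug, leaving 8 residual degrees of freedom. Each treated sample was paired with the control its label names. Within pairs, deviations from group means had correlations between 0.612 and 0.802. The fit was tested on simulated data. Arrays carry no read depth, and their number limits the precision. Members, lists and tests were chosen with earlier results of these data known. Beside the members, up to 4 genes of each list were named, those with the largest change among called genes that moved the same way in at least 11 of 12 pairs, together with a set of further genes listed by name and the 3 of most similar pattern per probe set. Alternatives changed the pairing, controls, batch terms, variance model, normalization, filter and probe set averaging, and left out each pair. Figures were made in Python 3.11.15 (matplotlib 3.10.9).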

Additional observations from a re-analysis of the deposited data

Results flagged for a closer look

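Fgf21 had changes of opposite sign in different preparations, with 1 sign in every pair of each preparation named here. Its mean change was -1.35 in preparation 1 (4 pairs), against 1.27 in preparation 3 (2 pairs), a difference of -2.61 on the log2 scale. Preparation 3 minus preparation 4 (1.27 against -1.35, 2 pairs each) was 2.62. The probe set 1369150_at of Pdk4 was higher with the drugs in all 3 pairs of preparation 2, at a mean of 0.17, and lower in both pairs of preparation 3, at -0.59, and of preparation 4, at -0.19, differences of 0.76 and 0.35. On the brighter Pdk4 probe set 1378074_at the means of preparations 2, 3 and 4 were 0.06, -0.23 and 0.02. These differences were not tested, since the preparations were formed from the control arrays that also enter each change.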

How the results depend on the processing

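In the mean of the 4 drugs Vnn1 and Angptl4 stayed lower and called in limma under every alternative run. Calls by single drug depended on the pairing. With no replicate block, so without pair terms, the calls over all probe sets were 38 for BZP, 1 for TFMPP, 12 for MeOPP, 28 for MDBP, 1927 for the mean and 0 for BZP minus TFMPP. Vnn1 then stood at -1.46, -1.14, -1.48 and -1.10 with BZP, TFMPP, MeOPP and MDBP (adjusted p = 0.381, 1.0, 0.487 and 0.668) and Angptl4 at -1.35, -0.99 and -1.26 with BZP, MeOPP and MDBP (0.358, 0.725 and 0.480), all without a call. With the 12 DMSO samples as 1 control group the counts were 386, 20, 796, 294, 2156 and 0 in the same order. Calls were lost for Vnn1 with BZP (-1.24), TFMPP (-1.41) and MDBP (-0.75) and for Angptl4 with MeOPP (-0.84), and with BZP Ppara was 0.16 and Fgf21 -0.33, of opposite sign.

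With only the 6 samples of a drug, 1063 probe sets were called for BZP and 1092 for TFMPP, and with TFMPP Fgf21 (-1.47) and Angptl4 (-0.73, adjusted p = 0.0339) passed. Preparation terms gave 4672, 1762, 3902 and 3946 calls for BZP, TFMPP, MeOPP and MDBP, and 137 for BZP minus TFMPP, 1 for BZP minus MeOPP, 302 for TFMPP minus MeOPP and 156 for TFMPP minus MDBP. There Fgf21 (-1.28) and Angptl4 (-0.76, adjusted p = 0.00103) passed with TFMPP, the second Pdk4 probe set (-0.45, adjusted p = 0.0465) passed with MDBP, and with BZP Ppara was 0.038 and Fgf21 -0.064. With 1 value per preparation 4346 probe sets were called, and the means of Pdk4 and Fgf21 turned to -0.0078 and 0.054. Signs also turned for Pdk4 with BZP (0.0092) on repeated quantile normalization, which gave 10 calls for BZP minus TFMPP, for Ppara with MDBP (0.0084) on median centring, and for the Pdk4 mean (-0.031) with averaged probe sets. Angptl4 passed with TFMPP (-0.73) among probe sets with a mean of at least 5.

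Leaving out each pair in turn, calls ranged over 1461 to 3053 for BZP, 139 to 701 for TFMPP, 819 to 2109 for MeOPP, 821 to 2530 for MDBP, 0 to 34 for BZP minus TFMPP, 0 to 1 for BZP minus MeOPP and 0 to 1 for TFMPP minus MDBP. Angptl4 ranged over -0.97 to -0.44 with TFMPP and -1.08 to -0.84 with MeOPP. Values that changed sign ranged over -0.29 to 1.16 for Fgf21 with BZP and -0.019 to 1.497 with MDBP, -0.23 to 0.088 for Ppara with BZP and -0.028 to 0.0081 with MDBP, -0.058 to 0.031 for Pdk4 with BZP and -0.015 to 0.052 in the mean, -0.039 to 0.22 for the second Pdk4 probe set with TFMPP, and -0.32 to 0.13 for Angptl4 in BZP minus MDBP. The cause of these changes was not tested. The lowest values of Ppara lay near the array medians. So did the lowest of Fgf21 (4.52 in a DMSO sample) and of Vnn1 (4.66 with MeOPP and 4.80 with BZP, both in pair 2).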
